A study of Mus musculus with 6 samples.

Results

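The genes described here encode carriers that move amino acids and related small molecules across cell membranes. They were chosen by name, as every row of the count table whose symbol begins with Slc1a, Slc3a, Slc6a, Slc7a, Slc36a, Slc38a or Slc43a, apart from Slc7a2 and Slc7a11. The rule found 61 of the 30587 rows of the table. It reads names and no measured value, but it was set with earlier results of these data known. Of these rows, 4 carry the ending "os" for a gene on the opposite strand and do not encode a carrier of these families.

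The cells were dendritic cells grown from bone marrow of C57BL/6 mice. KO cells (CD11c-Cre;Hif2afl/fl, 3 libraries) carried a Cre transgene driven by the CD11c promoter and floxed alleles of Hif2a, the gene for the transcription factor HIF-2α, which is listed as Epas1. WT cells (Hif2afl/fl, 3 libraries) carried the floxed alleles without Cre. Cultures of either genotype had been kept for 24 h with dimethyloxalylglycine (DMOG), which blocks the hydroxylases that lead to destruction of HIF α subunits, and then for 4 h with the glycolipid α-galactosylceramide. KO against WT under this combined treatment was therefore the only comparison, and its stated purpose was to learn how HIF-2α affects the priming with glycolipids by dendritic cells. The CD11c promoter limits Cre to cells that switch it on. Epas1 reads remained in KO, at 9.59, 12.7 and 11.5 CPM (counts scaled to a library of 1000000), against 20.1, 22.8 and 23.8 CPM in WT. The source of the reads that remained was not tested.

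Amino acid carriers work as sets. Exchangers of the Slc7 light chain group reach the plasma membrane bound to a heavy chain of the Slc3 group and swap an amino acid inside the cell for another outside. Sodium-coupled carriers of the Slc6 and Slc38 groups build up the internal pool that the exchangers spend. The neutral amino acid carriers of the Slc1 group are sodium-dependent but are themselves exchangers. Some Slc36 carriers use a proton gradient, often at the lysosome, and Slc43 carriers let large neutral amino acids flow downhill. In dendritic cells and macrophages these carriers supply leucine, glutamine and arginine for protein synthesis, for the growth kinase mTORC1 and for arginine-using enzymes. Amino acid shortage is known to raise several of their genes through the transcription factor ATF4, which binds C/EBP-ATF response elements.

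The promoters of 3 genes that were higher in KO are printed because they hold letters searched for in all promoters. Sequences are from RefSeq on GRCm38.p6, the assembly behind the mm10 build, 5′ to 3′ on the gene's strand, and run from 250 bases before the start site to 50 after it. Capitals mark matches to TGATGNAA, the C/EBP-ATF response element, or to ACGTG, a form of the core of a hypoxia response element, on either strand. The form GCGTG was not searched for, so the counts of the hypoxia core below cover ACGTG only.

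Slc1a4, chr11:20332664-20332963, minus strand: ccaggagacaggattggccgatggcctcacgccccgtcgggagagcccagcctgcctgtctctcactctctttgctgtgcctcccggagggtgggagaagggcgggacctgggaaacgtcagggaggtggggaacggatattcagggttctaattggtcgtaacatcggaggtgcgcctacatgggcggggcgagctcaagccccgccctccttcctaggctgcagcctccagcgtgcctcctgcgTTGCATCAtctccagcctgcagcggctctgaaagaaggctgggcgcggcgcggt
Slc7a7, chr14:54417895-54418194, minus strand: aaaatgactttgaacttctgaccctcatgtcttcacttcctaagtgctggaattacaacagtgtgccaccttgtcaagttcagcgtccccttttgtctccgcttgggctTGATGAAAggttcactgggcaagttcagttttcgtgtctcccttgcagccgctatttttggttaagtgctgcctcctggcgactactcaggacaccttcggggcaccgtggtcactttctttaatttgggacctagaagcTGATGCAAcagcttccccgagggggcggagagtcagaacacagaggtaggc
Slc3a2, chr19:8713848-8714147, minus strand: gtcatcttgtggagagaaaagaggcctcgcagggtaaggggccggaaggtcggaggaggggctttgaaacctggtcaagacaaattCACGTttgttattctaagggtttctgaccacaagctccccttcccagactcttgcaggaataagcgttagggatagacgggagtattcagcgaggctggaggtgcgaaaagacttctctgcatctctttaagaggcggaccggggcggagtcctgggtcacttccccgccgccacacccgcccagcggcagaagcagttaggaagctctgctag

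In Slc1a4 the capitals are the reverse complement TTGCATCA, beginning at base -4 from the start site. In Slc7a7 they are TGATGAAA at -141 and TGATGCAA at -1. In Slc3a2 they are CACGT, the reverse complement of ACGTG, at -164. A promoter was at hand for 21 of the 29 genes that could be tested. Those without an entry were Slc7a5, Slc1a5, Slc36a2, Slc43a3, Slc38a1, Slc6a8, Slc6a6 and Slc7a4. The C/EBP-ATF letters were present in 2 of the 5 higher genes with a promoter, in 0 of 1 lower gene and in 0 of 15 genes that were not called. Counted by promoter, they were in 3 of 10, 0 of 1 and 0 of 25. Genes with several start sites, such as Slc7a7, had more windows for a match, and overlapping Slc7a7 windows share a TGATGCAA. Among all 27025 genes of the promoter table, 4.51% held the letters, and among all 32851 promoters 3.97% did. The hypoxia core in its ACGTG form was present in 2 of 5 higher, 0 of 1 lower and 5 of 15 uncalled genes, against 21.8% of all genes. By promoter it was in 3 of 10, 0 of 1 and 6 of 25, against 19.6% of all promoters. Besides Slc3a2, the higher gene with this core was Slc7a7, in start sites further downstream. The interferon-stimulated response element was in none of the 21 genes' promoters, and in 3.99% of all genes and 3.44% of all promoters. Matches of letters are a description of these windows and show no binding.

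Library depth ran from 16826800 to 17884160 counts in KO and from 14668641 to 17041448 in WT. Reads reached more rows in KO 1 (22275) and WT 2 (25408) than in the other 4 libraries (18763 to 19513). Dendritic cell genes were present, with Cd74 at 2190 CPM in KO and 2697 CPM in WT and Itgax, the CD11c gene, at 179 and 205 CPM. Macrophage genes were also abundant: the list of 13 summed to 18890 to 19090 CPM in KO and 21930 to 24490 CPM in WT, mostly Lyz2, with 6 members higher, 1 lower and Cd163 under 1 CPM in each library. The 14 dendritic cell markers summed to 7167 to 8006 CPM in KO and 8064 to 8401 CPM in WT, with Cd209a under 1 CPM. Of these markers, 5 were higher (Flt3, Zbtb46, Irf8, Xcr1 and Ccr7) and 4 lower (Cd74, H2-Ab1, H2-Aa and Irf4), and Itgax was not called. Markers of plasmacytoid dendritic cells, 8 in all, summed to 376 to 380 CPM in KO and 182 to 217 CPM in WT, mostly Bst2 (287 to 295 CPM in KO and 106 to 137 CPM in WT), with 2 higher, 0 lower and Siglech, Ccr9 and Klk1 under 1 CPM. The 9 mast cell and basophil markers summed to 81.9 to 89.0 CPM in KO and 50.3 to 57.5 CPM in WT, with 4 higher, 0 lower and Fcer1a, Ms4a2, Tpsb2 and Cma1 under 1 CPM. The 10 neutrophil markers summed to 68.5 to 89.2 CPM in KO and 61.2 to 74.9 CPM in WT, with 2 higher, 1 lower and Ly6g, Elane and Mpo under 1 CPM. B cell, T and NK cell, erythroid and stromal lists each summed to at most 6.74 CPM in any library. The part of these cell types in the results on carriers was not tested. In such bulk RNA, fewer cells of a type and less RNA per cell cannot be told apart.

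Several genes for carriers of neutral and cationic amino acids at the plasma membrane were higher in KO, and 2 genes of the Slc36 group were lower. The genes that rose were Slc7a5, Slc7a8, Slc7a7, Slc3a2, Slc7a1, Slc1a4 and Slc1a5, by 1.14 to 1.60-fold. Slc36a2 fell 2.70-fold and Slc36a4 1.22-fold. Of the 61 rows, 29 had enough counts to be tested, and 7 of these were higher and 2 lower at an adjusted p under 0.05 (edgeR quasi-likelihood test, Benjamini-Hochberg over all tested rows). Over all 13249 tested rows, 25.8% were called in either direction, 13.8% higher and 12.0% lower. The share of 9 in 29 is near that background and is not in itself a result about these genes. The median log2 fold change of the 29 was -0.04, beside -0.009 over all tested rows. The split moved with the processing: 3 were higher and 2 lower without KO 3, 4 and 2 without WT 2, 6 and 1 without WT 3, and 5 and 6 with an offset for GC content and exon length. Libraries of the genotypes did not overlap in 14 of the 29, 8 with KO above and 6 with KO below. Over all tested rows 40.4% did not overlap, 20.5% with KO above and 20.0% with KO below.

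**Figure D1:**
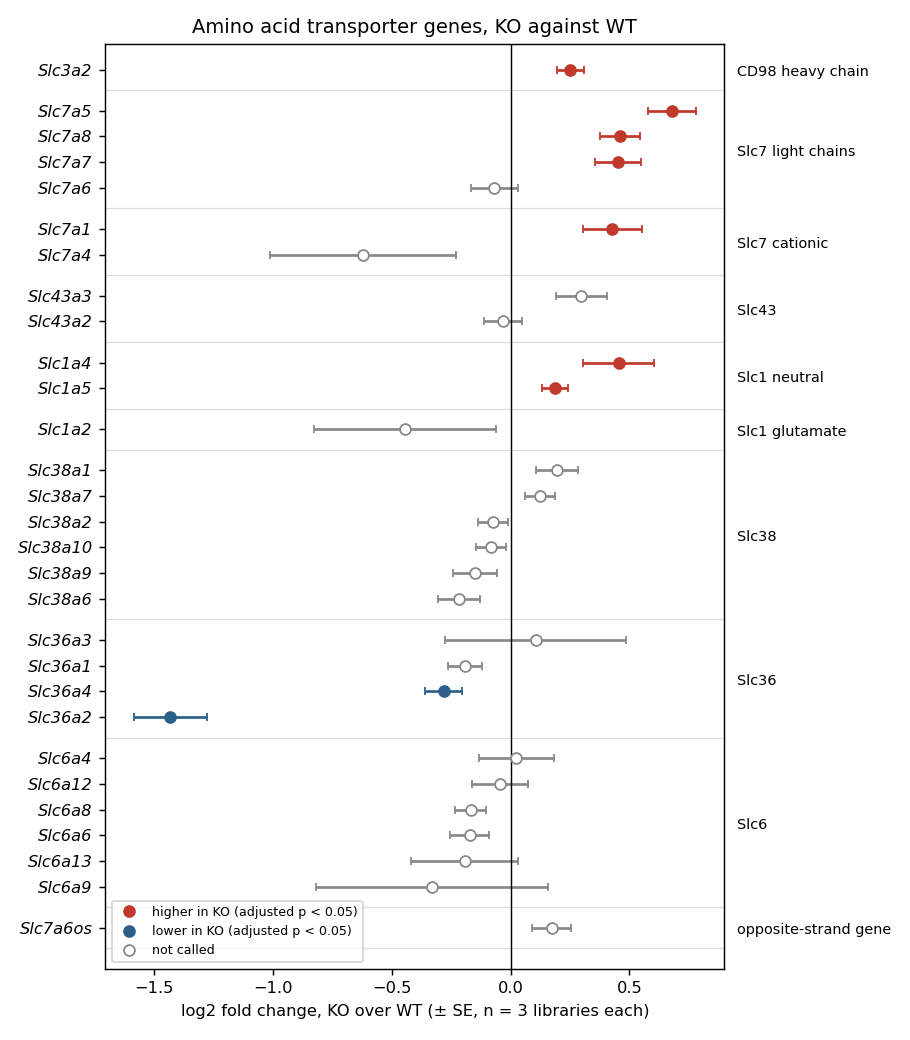
Log2 fold change, KO over WT, of the 29 tested genes, by role, with bars for the SE (n = 3 libraries each). Filled red points were called higher and filled blue points lower. Slc7a5 lies farthest to the right, at 0.68, and Slc36a2 farthest to the left, at -1.43.

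Slc3a2 (chromosome 19, 8706882 to 8723369, minus strand, mm10), whose product is the CD98 heavy chain that carries several light chains to the cell surface, had 577, 603 and 615 CPM in KO, against 510, 489 and 508 CPM in WT. The genotypes were fully apart. On the log2 scale the difference was 0.25 ± 0.06 (SE), or 1.19-fold, with an edgeR adjusted p = 0.00617. Without KO 3 it was 0.23 and did not pass. The other heavy chain gene, Slc3a1, which serves a cystine carrier of kidney and gut, had 5 reads over the KO libraries and 13 over the WT libraries, 9 of these in WT 2.

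Among the light chain genes, the leucine exchanger gene had the highest fold change of the 29. Slc7a5 (chromosome 8, 121881150 to 121907694, minus strand), for the exchanger LAT1 of leucine and other large neutral amino acids, had 20.4, 23.1 and 24.7 CPM in KO, against 14.9, 13.2 and 14.4 CPM in WT. The genotypes did not overlap, and KO 1 was the lowest of the KO libraries. The log2 fold change was 0.68 ± 0.10, or 1.60-fold (edgeR adjusted p = 0.00025).

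Slc7a8 (chromosome 14, 54722209 to 54781946, minus strand) encodes LAT2, an exchanger of small and large neutral amino acids. It had 398, 498 and 463 CPM in KO, against 314, 320 and 354 CPM in WT, again without overlap. The difference on the log2 scale was 0.46 ± 0.08, or 1.38-fold (edgeR adjusted p = 0.00131). Slc7a7 lies on the same chromosome and strand (54369442 to 54417780) and encodes y+LAT1, which exports arginine and lysine in exchange for neutral amino acids and sodium. It had 16.9, 15.6 and 16.6 CPM in KO, against 11.95, 12.8 and 11.3 CPM in WT, with all KO values above all WT values. The difference of 0.45 ± 0.10 on the log2 scale passed the test (edgeR adjusted p = 0.00412). Exons of Slc7a7 overlap those of Oxa1l on the other strand over 6.998% of their length, and whether counting used strand is not given in the sources used here. Oxa1l itself had 56.0 ± 2.005 CPM in KO and 54.8 ± 2.77 CPM in WT (SD).

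Slc7a6 encodes y+LAT2, the close relative of y+LAT1. It had 14.7, 17.3 and 17.2 CPM in KO, against 17.7, 17.7 and 16.0 CPM in WT. The genotypes overlapped, and the log2 fold change of -0.07 ± 0.10 was not called (edgeR adjusted p = 0.665). It turned to 0.007 without KO 1 and to 0.03 without WT 2 and KO 1. The calls of Slc7a5, Slc7a8 and Slc7a7 held in all 15 alternatives. Slc7a12 and Slc7a15, related light chain genes, had 1 and 10 reads over all libraries.

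Per kilobase of exon, the 4 tested light chains together, Slc7a11 not counted, stood at 0.571, 0.669 and 0.619 of the Slc3a2 level in KO 1, 2 and 3. In WT they stood at 0.513, 0.543 and 0.566. These ratios of levels did not overlap, and the exact two-sided permutation p was 0.1, the smallest that 3 libraries against 3 allow. They rested mostly on Slc7a8, at 90.5 ± 10.1 CPM per kilobase in KO and 65.8 ± 4.37 in WT (SD). Slc7a8 had by far the higher level of the leucine exchangers, at 14.5, 16.0 and 13.9 times the Slc7a5 level per kilobase in KO and 15.6, 17.9 and 18.2 times in WT. That ratio overlapped between the genotypes (exact two-sided permutation p = 0.2). Slc7a11, another partner of CD98 that imports cystine, had 231 ± 1.29 CPM in KO and 252 ± 11.96 CPM in WT (SD; edgeR adjusted p = 0.178). Its level per kilobase over that of Slc3a2 went the other way from the ratio of those 4 light chains. It was 0.102, 0.0971 and 0.0950 in KO against 0.125, 0.124 and 0.132 in WT (exact two-sided permutation p = 0.1, again the smallest possible). Slc7a11 stood at 16.6 CPM per kilobase in KO and 18.1 in WT, above Slc7a5, Slc7a6 and Slc7a7. A ratio that counts Slc7a11 with the 4 light chains overlapped between the genotypes, with KO 1 below WT 3, and was not tested.

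**Figure D2:**
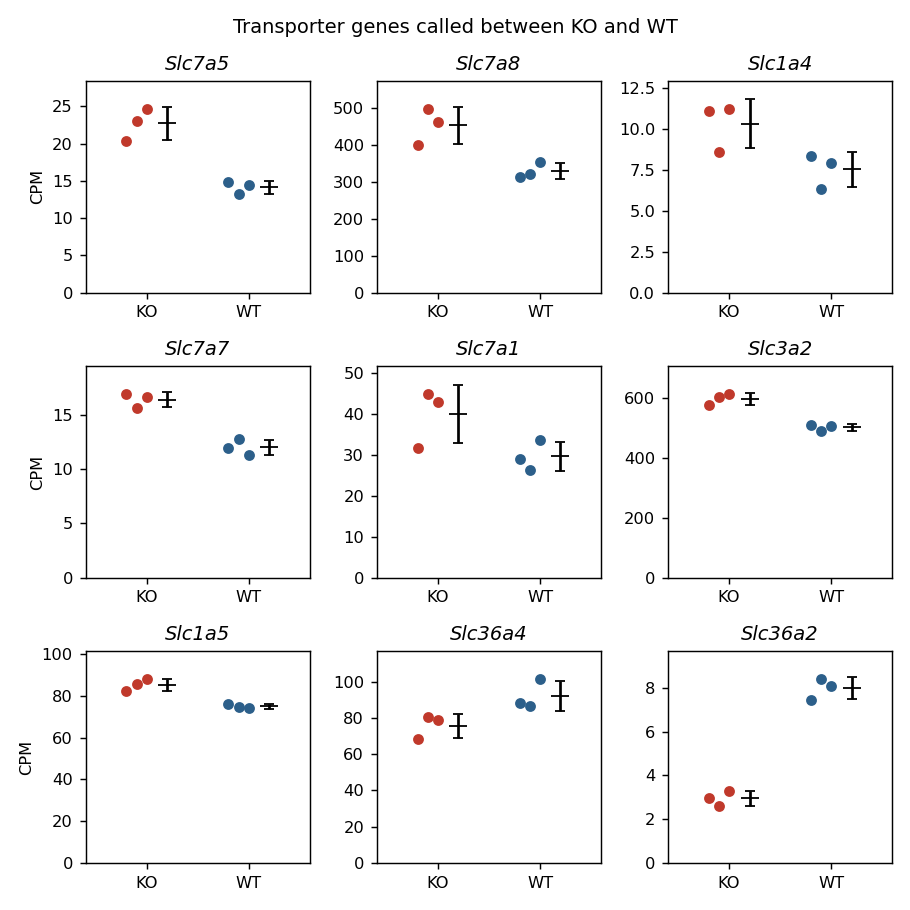
CPM in each library of the 9 called genes, KO in red and WT in blue, with the mean ± SD in black (n = 3 each) and each axis starting at 0. KO and WT points are apart in 8 panels, and in Slc7a1 the lowest KO library lies among the WT libraries.

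Of the cationic amino acid carriers that work without a heavy chain, Slc7a1 was higher in KO. It encodes CAT1, the widespread importer of arginine, lysine and ornithine (chromosome 5, 148327410 to 148399904, minus strand). Its levels were 31.9, 45.0 and 43.03 CPM in KO, against 29.0, 26.5 and 33.6 CPM in WT, so that KO 1 lay below WT 3. Its log2 fold change was 0.43 ± 0.12, or 1.35-fold (edgeR adjusted p = 0.0214). It was not called without KO 2 (0.34), KO 3 (0.37), WT 1 (0.42) or WT 2 (0.35).

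The other arginine importer of these cells, Slc7a2 or CAT2, went the opposite way, at 103, 142 and 123 CPM in KO against 260, 248 and 283 CPM in WT, a log2 fold change of -1.102 ± 0.098 (edgeR adjusted p = 2.55e-06). Per kilobase of exon, Slc7a2 stood at 4.09, 3.98 and 3.60 times the Slc7a1 level in KO and at 11.3, 11.8 and 10.6 times in WT (exact two-sided permutation p = 0.1, the smallest possible). Slc7a4, a relative of these carriers, had 0.69 ± 0.20 CPM in KO and 1.07 ± 0.37 CPM in WT (SD), with overlap and no call (log2 fold change -0.62 ± 0.39, edgeR adjusted p = 0.276). Exons of Slc7a4 overlap those of P2rx6 on the other strand over 13.3% of their length. Slc7a3 and Slc7a14 had 35 and 9 reads over all libraries.

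Both sodium-dependent exchangers of neutral amino acids in the Slc1 group rose. Slc1a5 (chromosome 7, 16781340 to 16798274, plus strand) encodes ASCT2, the exchanger through which many cells take up glutamine. It had 82.3, 85.6 and 88.2 CPM in KO, against 76.1, 74.5 and 74.3 CPM in WT. The genotypes did not overlap, and the log2 fold change was small, 0.19 ± 0.06, or 1.14-fold (edgeR adjusted p = 0.0231). It was not called without KO 3 (0.16), WT 1 (0.205), WT 2 (0.18) or WT 2 and KO 1 (0.21), nor with the GC and length offset (0.093).

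Slc1a4 (chromosome 11, 20302180 to 20332713, minus strand) encodes ASCT1, an exchanger of alanine, serine and cysteine. It had 11.1, 8.59 and 11.3 CPM in KO, against 8.34, 6.35 and 7.91 CPM in WT, and the lowest KO library was just above the highest WT library. The log2 fold change was 0.45 ± 0.15, or 1.37-fold (edgeR adjusted p = 0.0385). The call was lost without KO 1 (0.40), KO 3 (0.39), WT 2 (0.35), WT 3 (0.50) or WT 2 and KO 1 (0.29), and with the GC and length offset (0.40).

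The glutamate importers of the same group were close to absent. Slc1a2, for the glial carrier GLT-1, had 31 reads over the KO libraries and 38 over the WT libraries, with no call (log2 fold change -0.44 ± 0.38, edgeR adjusted p = 0.438). Slc1a1, Slc1a3 and Slc1a6 had 10, 5 and 2 reads over all 6 libraries.

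The Slc36 group includes proton-coupled carriers of small amino acids such as proline, glycine and alanine. It held the fall that was largest in fold among the 29. Slc36a2 (chromosome 11, 55158470 to 55185077, minus strand), which encodes PAT2, known from kidney for the uptake of proline and glycine, had 54, 44 and 57 reads in KO against 126, 130 and 119 reads in WT. That was 2.96, 2.61 and 3.31 CPM in KO, against 7.45, 8.42 and 8.12 CPM in WT. Every WT library had more than the highest KO library by a wide margin, and the log2 fold change of -1.43 ± 0.16, or 2.70-fold lower in KO, was called in all 15 alternatives (edgeR adjusted p = 1.7e-05).

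Its neighbours on chromosome 11 were not called. Slc36a1, at 55204350 to 55236330 on the plus strand, encodes PAT1, a lysosomal carrier linked to mTORC1. It had 90.6, 105 and 96.7 CPM in KO, against 106, 106 and 122 CPM in WT, without overlap (log2 fold change -0.19 ± 0.07, edgeR adjusted p = 0.063). It was called lower without KO 2 (-0.25) and with the GC and length offset (-0.27). Slc36a3, at 55124815 to 55151708 on the minus strand, had 43 reads over the KO libraries and 36 over the WT libraries (log2 fold change 0.105 ± 0.38, edgeR adjusted p = 0.874).

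Slc36a4 (chromosome 9, 15709738 to 15743361, plus strand) encodes PAT4, a carrier with high affinity for proline and tryptophan. It had 68.3, 80.4 and 78.7 CPM in KO, against 88.5, 86.4 and 102 CPM in WT, with no overlap. Its log2 fold change of -0.28 ± 0.08, 1.22-fold lower, passed the test (edgeR adjusted p = 0.0162). Without WT 3 it was -0.20 and not called.

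None of the 6 tested Slc38 genes was called by edgeR, DESeq2 or limma-voom, and 1 higher and 1 lower had an unadjusted edgeR p under 0.05. Slc38a2, for the carrier SNAT2 that cells are known to raise when amino acids run short, had 60.3, 62.7 and 67.2 CPM in KO, against 70.3, 63.5 and 66.4 CPM in WT. The genotypes overlapped (log2 fold change -0.07 ± 0.065, edgeR adjusted p = 0.441). Slc38a1, for the glutamine carrier SNAT1, had 65.5, 83.8 and 78.3 CPM in KO, against 61.8, 64.5 and 72.5 CPM in WT. It overlapped as well, through KO 1 (log2 fold change 0.20 ± 0.09, edgeR adjusted p = 0.124). It was called higher without KO 1 (0.29), without WT 2 and KO 1 (0.275) and with no low-count filter (0.21).

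Slc38a7 exports glutamine and asparagine from the lysosome. Its levels were 73.0 ± 4.80 CPM in KO and 67.0 ± 2.54 CPM in WT (SD), with a call only when KO 1 was left out (0.18, against 0.12 over all libraries). Slc38a9, the lysosomal arginine sensor of mTORC1, stood at 23.3, 24.5 and 24.5 CPM in KO, against 25.7, 24.5 and 30.1 CPM in WT (log2 fold change -0.15 ± 0.09, edgeR adjusted p = 0.262). KO 2 and WT 2 had nearly the same value. Slc38a10 had 132 ± 8.94 CPM in KO and 140 ± 3.51 CPM in WT, and Slc38a6 18.2 ± 1.097 CPM in KO and 21.1 ± 0.86 CPM in WT (SD). Slc38a10 was called lower (-0.19) with the GC and length offset.

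Neither tested Slc43 gene was called. Slc43a2, for LAT4, which lets branched-chain amino acids and phenylalanine pass downhill, had 460, 563 and 508 CPM in KO, against 488, 506 and 570 CPM in WT. The ranges lay on top of each other (log2 fold change -0.03 ± 0.08, edgeR adjusted p = 0.824). Exons of Slc43a2 overlap those of the antisense gene Gm45606 over 9.18% of their length. Slc43a3, which belongs to the group by sequence but is known to carry purine bases, had 19.0, 20.5 and 20.2 CPM in KO, against 18.8, 14.3 and 15.4 CPM in WT. The KO libraries were all higher, by a narrow gap to WT 1 (log2 fold change 0.30 ± 0.11, edgeR adjusted p = 0.0587). It was called higher without WT 1 (0.43) and with scaling to library size only (0.33). Slc43a1, for LAT3, had 28 reads over all libraries.

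The Slc6 group holds sodium- and chloride-coupled carriers of amino acids, osmolytes and neurotransmitters. None of its 6 tested genes was called by edgeR, DESeq2 or limma-voom, and 1 lower had an unadjusted edgeR p under 0.05. Slc6a6, for the taurine carrier, was the most abundant row of the 61 by CPM, at 677, 845 and 791 CPM in KO, against 830, 828 and 947 CPM in WT. KO 2 lay within the WT range (log2 fold change -0.17 ± 0.08, edgeR adjusted p = 0.14). Slc6a8, for the creatine carrier, had 174, 188 and 177 CPM in KO, against 193, 196 and 217 CPM in WT, with no overlap and no call (log2 fold change -0.17 ± 0.07, edgeR adjusted p = 0.0785). Both were called lower with the GC and length offset, at -0.24 for Slc6a6 and -0.27 for Slc6a8.

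Slc6a4, the serotonin carrier gene, had 9.42 ± 1.74 CPM in KO and 9.27 ± 1.54 CPM in WT (SD). Slc6a12, for the carrier of betaine and GABA, had 12.3 ± 1.75 CPM in KO and 12.7 ± 0.71 CPM in WT. Its neighbour on chromosome 6, Slc6a13, had 2.72 ± 0.50 CPM in KO and 3.10 ± 0.70 CPM in WT. Slc6a9, for a glycine carrier, had 29 reads over the KO libraries and 33 over the WT libraries. Exons of Slc6a9 overlap those of Ccdc24 on the other strand over 27.8% of their length. The genotypes overlapped in all 4 of these genes, with edgeR adjusted p-values of 0.933, 0.83, 0.579 and 0.67.

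The rows too low to test numbered 32 and held 304 reads in all, of which 91 were in WT 2. Between 1 and 49 reads per row were spread over the 6 libraries, with fewer than 10 in 22 of the rows. They included 16 rows of the Slc6 group, among them the dopamine and norepinephrine carrier genes Slc6a3 and Slc6a2 with 2 and 1 reads. The highest were Slc36a3os with 49 reads and Slc6a19, a neutral amino acid carrier of gut and kidney, with 46. Slc6a19os and Slc36a1os had 4 and 3 reads. In the Slc6 group Slc6a17, Slc6a15 and Slc6a20b had 18, 13 and 11 reads, and Slc6a5, Slc6a7, Slc6a11, Slc6a14, Slc6a16, Slc6a18, Slc6a20a and Slc6a21 had 1 to 6. In the Slc38 group Slc38a3, Slc38a4, Slc38a5, Slc38a8 and Slc38a11 had 1 to 5. The only tested row named for the opposite strand, Slc7a6os, a protein-coding gene beside Slc7a6, had 25.1 ± 0.87 CPM in KO and 22.2 ± 1.12 CPM in WT (SD; edgeR adjusted p = 0.149).

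Per kilobase of exon, levels spanned the range from Slc3a2 to Slc1a2. Slc3a2 stood at 170 ± 5.49 CPM per kilobase in KO and 142 ± 3.29 in WT (SD). The next 2 were Slc6a6, at 91.1 ± 10.1 in KO and 103 ± 8.02 in WT, and Slc7a8, at 90.5 ± 10.1 in KO and 65.8 ± 4.37 in WT. These levels of Slc6a6 and Slc7a8 differed by less than their spread in KO and by more than it in WT. Slc43a2, Slc6a8 and Slc38a10 followed in KO and in WT. Slc7a5, in contrast, ranked 12 in KO and 15 in WT, at 6.13 ± 0.59 and 3.82 ± 0.23 CPM per kilobase. Slc36a2 ranked 25 in KO and 21 in WT. All 61 rows, the 4 opposite-strand names included, summed to 3056 to 3564 CPM in KO and 3140 to 3457 CPM in WT, so the totals overlapped.

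**Figure D3:**
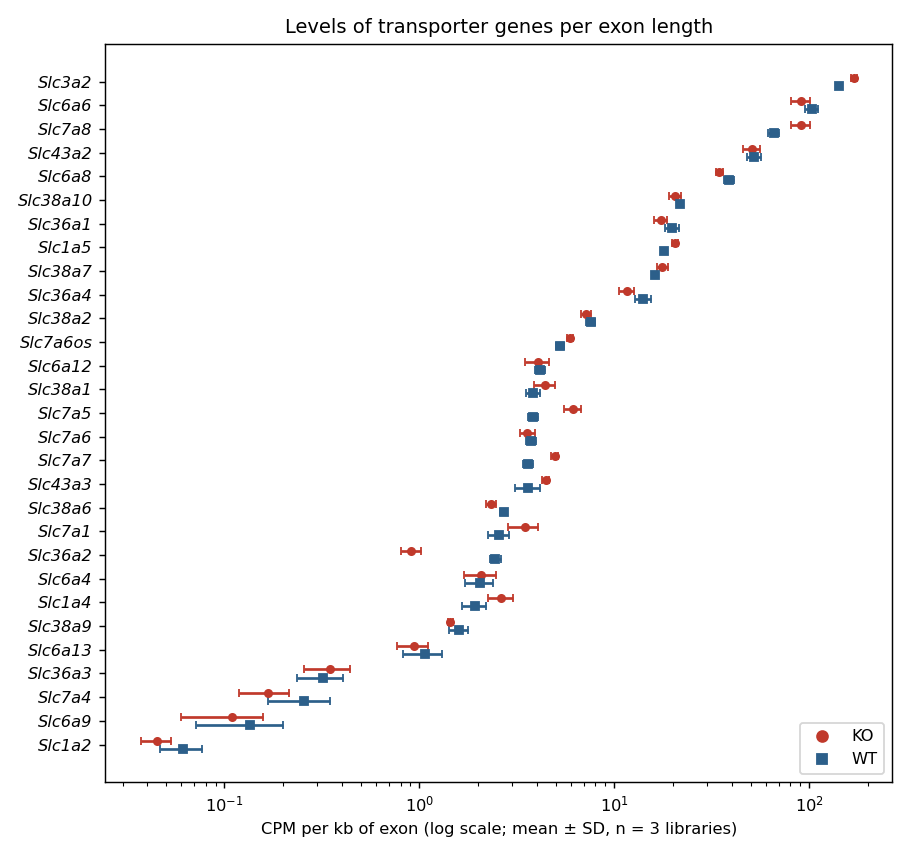
Level of each tested gene in CPM per kilobase of exon, on a log axis, KO as red circles and WT as blue squares, with the mean ± SD (n = 3 each), ordered by the WT mean. Slc3a2 is at the top at 170 in KO and 142 in WT, and Slc36a2 shows the widest gap between the genotypes among genes above 0.5 CPM per kilobase.

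In sums by group, the opposite-strand names are counted with the group they are named for. The Slc7 sum, with Slc7a6os and without Slc7a2 and Slc7a11, was 509 to 626 CPM in KO and 412 to 452 CPM in WT. Slc7a8 made up most of it, at 398 to 498 CPM in KO and 314 to 354 CPM in WT. Both omitted genes had every KO library below every WT library. For Slc7a2 these were 103 to 142 CPM in KO and 248 to 283 CPM in WT. For Slc7a11 they were 231 to 233 CPM in KO and 240 to 264 CPM in WT. With both genes added, the Slc7 sums of the genotypes overlapped. The Slc1 group summed to 94.1 to 100.1 CPM in KO and 82.3 to 85.4 CPM in WT. The Slc36 group summed to 163 to 190 CPM in KO and 202.5 to 232.5 CPM in WT. In these 3 groups, counted in this way, the library sums did not overlap. The sums of the Slc38 group (358 to 407 CPM in KO, 379.5 to 404 CPM in WT), the Slc43 group (480 to 584 in KO, 507.5 to 586 in WT) and the Slc6 group (876 to 1059 in KO, 1050 to 1191 in WT) did.

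**Figure D4:**
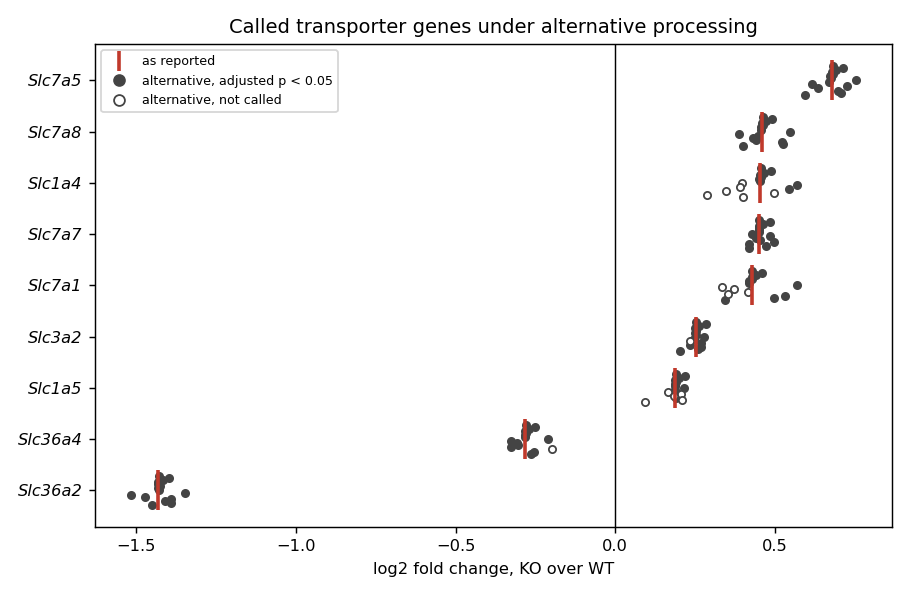
Log2 fold change, KO over WT, of the 9 called genes as reported (red bar) and under 15 alternatives (points, open where the gene was not called). Slc7a5, Slc7a8, Slc7a7 and Slc36a2 have filled points only, and Slc1a4 has 6 open points, the most.

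Genes known to respond to amino acid shortage went both ways. Of 22 tested outside the carriers, 6 rose and 5 fell, beside 13.8% higher and 12.0% lower over all tested rows. Their median log2 fold change was 0.18. Ddit3, for the stress factor CHOP, was 1.44-fold higher at 91.8 ± 4.26 CPM in KO and 63.8 ± 6.90 CPM in WT (SD; edgeR adjusted p = 0.000184). Exons of Ddit3 overlap those of Mars on the other strand over 3.97% of their length. Eif4ebp1, a translation repressor controlled by mTORC1, was 1.44-fold lower at 118 ± 7.57 CPM in KO and 170 ± 13.8 CPM in WT (edgeR adjusted p = 0.000131). Atf3, for a stress-induced transcription factor, was 1.35-fold lower, and Stc2, for a secreted glycoprotein, 3.10-fold lower at 0.99 ± 0.09 CPM in KO and 3.10 ± 0.34 CPM in WT. Atf4 itself, named after its values were seen, had 274 ± 13.2 CPM in KO and 242 ± 13.4 CPM in WT and did not pass (edgeR adjusted p = 0.0639). Asns, for asparagine synthetase and also named afterwards, had 29.3 ± 1.40 CPM in KO and 25.7 ± 2.04 CPM in WT (edgeR adjusted p = 0.134). The remaining called genes were named afterwards too. Nupr1, Psat1, Mthfd2, Shmt2 and Sesn2 were 1.19 to 1.62-fold higher, and Atf5 and Cebpg were 1.22 and 1.27-fold lower. Without WT 1, 3 of the list fell.

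The amino acid sensing machinery at the lysosome also split, with 8 higher and 7 lower of 32 tested, against the same background of 13.8% and 12.0%, and a median of -0.04. Mtor, for the kinase of mTORC1, was 1.42-fold higher, at 90.4 ± 8.18 CPM in KO and 63.5 ± 6.10 CPM in WT (SD; edgeR adjusted p = 0.000425). Rptor, for its partner raptor, was 1.23-fold higher. Lamtor3, of the Ragulator scaffold that holds mTORC1 at the lysosome, was 1.28-fold lower, at 70.0 ± 1.03 CPM in KO and 89.7 ± 3.44 CPM in WT (edgeR adjusted p = 0.000366). Bmt2, for the S-adenosylmethionine sensor SAMTOR, was 1.29-fold lower. The lower genes numbered 4 with scaling to library size only, without KO 3 or without WT 1, and the higher ones 5 without WT 2 and KO 1.

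Carriers of amino acids and related solutes in other families had 6 higher and 0 lower of 19 tested (edgeR; 0 lower also with DESeq2 and limma-voom, and 3 lower at an unadjusted edgeR p under 0.05), with a median of 0.04. The background was 13.8% higher and 12.0% lower. Slc25a22, for a mitochondrial glutamate carrier, was 2.45-fold higher, at 44.2 ± 3.79 CPM in KO and 18.1 ± 1.34 CPM in WT (SD; edgeR adjusted p = 2.53e-07). Slc15a3, for a lysosomal carrier of histidine and peptides, was 1.58-fold higher, at 515 ± 34.2 CPM in KO and 325 ± 10.6 CPM in WT. Its exons overlap those of Tmem132a on the other strand over 28.1% of their length. Pqlc2, for the lysosomal exporter of cationic amino acids, was 1.30-fold higher, and Slc29a3, which carries nucleosides and not amino acids, 1.53-fold higher. Counts of lower genes were 1 without KO 1 or WT 1, and 2 with the GC and length offset.

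Of 28 tested enzymes of amino acid metabolism, 3 rose and 2 fell, with a median of -0.008. The share called was below the 25.8% over all tested rows. Gls2, for a mitochondrial glutaminase, had 55.8, 38.5 and 46.7 CPM in KO, against 14.4, 12.7 and 8.66 CPM in WT. No KO library came near the WT range, and the log2 fold change was 1.97 ± 0.16, or 3.92-fold (edgeR adjusted p = 1.23e-06). Exons of Gls2 overlap those of Spryd4 on the other strand over 2.79% of their length. Got1, for the cytosolic aspartate aminotransferase, was 1.55-fold higher at 130 ± 8.06 CPM in KO and 83.6 ± 4.82 CPM in WT. Gcsh, for a protein of the glycine cleavage system, was 1.49-fold higher at 57.8 ± 4.10 CPM in KO and 38.7 ± 3.62 CPM in WT. Amt, of the same system, was 2.19-fold lower at 0.70 ± 0.21 CPM in KO and 1.56 ± 0.13 CPM in WT (edgeR adjusted p = 0.0216). The enzymes that fell numbered 0 without KO 3, WT 1 or WT 2.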

How the data were processed

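RNA of 3 KO and 3 WT preparations was sequenced. What the authors deposited is a single table of counts, 1 row per symbol, which had not been normalized. The submitters' processing notes name mm10 as build and list TopHat2, HISAT2, HISAT, SAMtools, HTSeq and DESeq2. Neither the role of each tool nor the annotation or strand setting is given in the sources used here. Nothing in the labels ties a library to its own animal or culture. The p-values therefore cover the spread between these libraries alone, which may be technical. No exact permutation p can fall below 0.1 with 3 libraries a genotype.

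Low rows were removed with filterByExpr (minimum count 10) and the rest scaled by TMM. The main test was edgeR's (4.0.16, under R 4.3.3) quasi-likelihood F test of KO over WT, without covariates. Benjamini-Hochberg adjustment ran over the 13249 rows tested, and an adjusted p under 0.05 counted as a call. CPM are counts scaled to 1000000 of the TMM-adjusted library size. The SE is the size of the log2 fold change divided by the root of F. Levels per kilobase take exon lengths from GENCODE M21, on the same build, where all 61 rows had an entry. The procedure was tested on simulated data, with changes larger than those of most called carrier genes, and the outcome is not reported here. No 2 replicates looked like the same library (chi-square per degree of freedom at least 4.1).

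Members and lists were chosen with earlier results of these data known. Called members are given by library, the others by library, group or reads. Not every row below the count filter is reported here by name. From each of 4 lists of related genes, up to 4 called genes with the lowest p are named. Further response genes are named where the text says so. Each choice was also changed singly. Scaling was done with DESeq2 size factors or by library size, and the low-count filter was dropped or tightened to 10 counts across a genotype's libraries. DESeq2's Wald test (1.42.0) and limma-voom (limma 3.58.1) stood in for edgeR. Further fits blocked on replicate number, left out single libraries, or left out WT 2 together with KO 1. An offset for GC content and exon length was added after seeing the data.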

Additional observations from a re-analysis of the deposited data

How the results depend on the processing

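The number of carrier genes called higher in KO ranged from 3 to 8 when single libraries were left out, and the number called lower from 1 to 3, with 6 lower under the GC and length offset. Over all tested rows, 1182 to 1992 were higher and 945 to 1622 lower with a library left out. Response genes called lower ranged from 3 to 6. Sensing genes called lower ranged from 4 to 5 with a library left out and were 4 with library size only, while 5 were called higher without WT 2 and KO 1. Carriers of other families called lower ranged from 0 to 1 and were 2 with the offset. Enzymes called lower ranged from 0 to 2, and were 1 with library size only, no low-count filter, the DESeq2 Wald test or the replicate block.

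Fold changes that turned sign all belonged to genes that were not called: Slc36a3 (-0.065 to 0.31 with a library left out), Slc6a4 (-0.126 to 0.17, and -0.025 with the offset), Slc6a12 (-0.164 to 0.028), Slc6a13 (-0.354 to 0.005), Slc43a2 (-0.105 to 0.046, 0.001 with library size only and 0.018 without WT 2 and KO 1) and Slc7a6 (-0.108 to 0.007, and 0.031 without WT 2 and KO 1). The cause was not tested. Requiring 10 counts in every library of a genotype left Slc6a9 without a value. Same-numbered libraries of the genotypes did not deviate together (correlations of 0.015, -0.11 and 0.08), so the numbers were not taken to pair them. With the replicate block, 7 carrier genes were higher and 2 lower, and no carrier gene changed its call. Low counts limit Slc36a3, Slc1a2, Slc6a9 and Slc7a4, where the SE of a log2 fold change was at least 0.38.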
